A study of Homo sapiens and Mus musculus with 6 samples.

Results

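RUNX1, RUNX2, RUNX3, CBFB, ETS1, FLI1, ETV6, ERG and ELF1 are 9 genes of the RUNX and ETS families of transcription factors. Their promoter contacts were read from the Promoter CHi-C (capture Hi-C) interaction calls of GM12878 and, for comparison, of mouse embryonic stem cells (mESCs). A call was kept if a fragment at either of its ends carried the symbol of one of the 9 genes, ignoring case. On this rule 8 of the 9 genes had a call in GM12878, with 107 of its 92929 calls, and 7 of 9 in mESCs, with 41 of 101841 calls. GM12878 is a human lymphoblastoid (B cell) line grown in suspension in RPMI-1640 with serum, and was profiled in 3 biological replicates. The mESCs were of the J1 line (129S4/SvJae), were expanded in serum on irradiated embryonic fibroblasts from which they were separated before harvest, and were profiled in 2 biological replicates. An additional mESC library was made by Hi-C without capture. No cells were treated or carried an introduced mutation.

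The RUNX proteins bind DNA through a Runt domain, which holds DNA tightly only when paired with CBFβ, the product of CBFB, a subunit that does not itself touch DNA. ETS proteins share a winged helix domain that reads a GGAA core. Both families are known for their part in blood cell formation, where RUNX and ETS sites often lie side by side in the same enhancers, and several of these genes are joined to others by the translocations of leukaemia and sarcoma.

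In Promoter CHi-C, chromatin is cut with HindIII, ligated in place, and the fragments that carry promoters are enriched with RNA baits. The fragment caught is called the bait and the fragment joined to it the other end. CHiCAGO scores each pair against a background that falls with distance, and the lists hold pairs with a score of at least 5. The replicates of a cell type were combined before calling, so each cell type gave a single set of calls with no spread between replicates. The counts below are therefore described and not tested, and intervals cover counting error only. The number of sequenced read pairs behind each library is not part of these lists. A read count given for a call is the authors' rounded, weighted combination of the replicates, which the methods call a sum and their mathematical supplement an average, so it is not a raw number of reads. The fragments that were baited but gave no call were not analysed here, so for a promoter fragment that was not listed at all, one that was not captured and one without contacts cannot be told apart. The lists hold no expression values against which the labelled cell types could be checked.

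The contacts of these genes in GM12878 were concentrated on ETS1 and CBFB. ETS1, a factor of lymphoid cells, had 52 calls and CBFB had 36, while a gene symbol in the list had a median of 4. As many calls as ETS1 or more were listed for 306 of 21999 symbols (1.39%), and as many as CBFB or more for 760 (3.45%). The other 6 genes with a call had between 1 (ERG) and 7 (ELF1). All 107 calls were cis-chromosomal, and their median distance between fragment midpoints was 194.9 kb (95% order-statistic interval 133.6 to 259.8 kb) against 173.7 kb over all cis calls. Without ETS1 that median was 117 kb, below the interval. Listed read counts ranged from 6 to 62 with a median of 19, against 16 over all calls, and the highest score was 20.72.

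**Figure D1:**
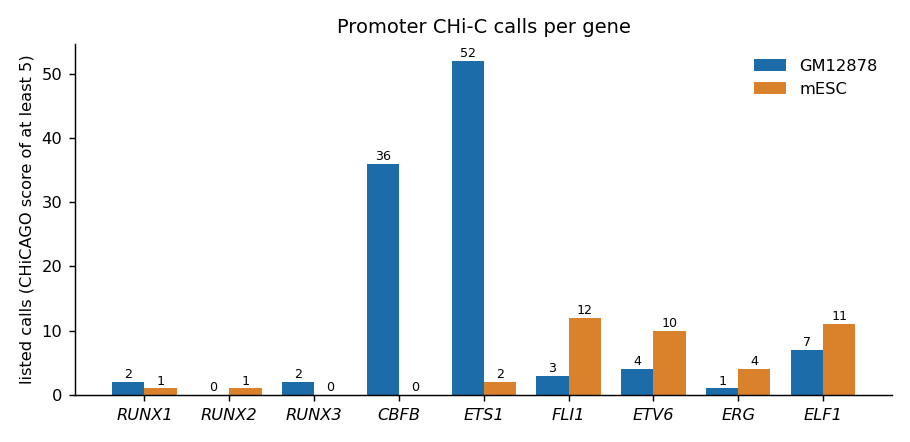
Number of listed calls (y axis) for each of the 9 genes (x axis) in GM12878 (blue) and mESCs (orange), with the number printed on each bar. ETS1 (52) and CBFB (36) stand far above the other genes in GM12878, and in mESCs FLI1 (12), ELF1 (11) and ETV6 (10) have the most.

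Of the RUNX genes, RUNX3 is the member best known for its roles in mature lymphocytes. Its bait in GM12878 was a single fragment, chr1:25273787-25293947 (hg19), which also carried the name RP11-84D1.1. It made 2 calls, both upstream of the gene and both with 20 reads. The fragment chr1:25355912-25358427, 73.3 kb from the bait, had a score of 7.63 and overlapped no annotated gene. The fragment chr1:25372976-25379197, at 92.2 kb, had a score of 9.08 and overlapped an exon of the long non-coding RNA LINC02793. No other bait in the GM12878 list called either fragment.

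The bait fragment held the distal of the RUNX3 promoters. This was found by matching the RefSeq promoter (GRCh38.p14, chr1:24965011-24965260, minus strand, the 250 bases before the start) exactly to the hg19 bait fragment. It is printed because it is the promoter from which the RUNX3 contacts were measured, and because it carries the family's own core letters. Capitals mark TGTGGT, the RUNX core, or its reverse complement ACCACA.
RUNX3 distal promoter: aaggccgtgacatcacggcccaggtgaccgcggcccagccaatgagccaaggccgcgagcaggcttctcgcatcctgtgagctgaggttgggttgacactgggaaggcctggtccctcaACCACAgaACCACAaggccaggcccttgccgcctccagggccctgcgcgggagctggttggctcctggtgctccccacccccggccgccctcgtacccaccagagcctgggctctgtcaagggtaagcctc
The letters occur in 2 places, 2 bases apart. Below it stands the part of the contacted fragment with the higher score that holds most of the searched letters within 120 bases (hg19, chr1:25375666-25375785, plus strand). Here GGAAGT, the ETS letters searched with their reverse complement ACTTCC, would also be in capitals. These letters are longer than the GGAA core, so GGAA alone is neither marked nor counted.
RUNX3 contacted fragment: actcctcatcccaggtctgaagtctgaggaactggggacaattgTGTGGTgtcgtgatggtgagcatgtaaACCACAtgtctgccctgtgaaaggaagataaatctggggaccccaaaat
The whole fragment of 6.22 kb held the RUNX letters 5 times and the ETS letters 4 times. A match describes the letters and does not show that a factor was bound.

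RUNX1, the factor needed for the first blood stem cells, had 2 calls in GM12878. They came from a fragment far upstream of its usual promoters. The annotation gives RUNX1 a span of 1217 kb, with starts on 10 HindIII fragments, of which 1 was in the list: chr21:37355907-37360248, with 1 annotated start. The fragments chr21:36420828-36424603 and chr21:36258299-36265017, with 5 and 3 annotated starts, which include the distal and the proximal promoter, were not listed at either end of any call.

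The RUNX1 bait called chr21:36102982-36110033, over the non-coding gene LINC00160, with 8 reads and a score of 5.02. It also called chr21:36126782-36129706, in an intron of LINC01426, with 8 reads and a score of 5.03. Both fragments lay beyond the 3′ end of RUNX1, 1252 and 1229.8 kb from the bait, and both scores were close to the threshold of 5. Calls over 1 Mb made up 1.64% of all cis calls in GM12878, and no other GM12878 call of the 9 genes was that long. Between the contacted fragments lay the bait of AP000330.8 (chr21:36111619-36122838). It in turn called into the annotated span of RUNX1, with 10 reads and a score of 7.63 at 1096 kb and with 11 reads and a score of 6.01 at 646 kb. Both places lay upstream of the fragments with the distal and the proximal RUNX1 promoter. The fragment over LINC01426 was also called from the bait of CBR3-AS1 and DOPEY2. It held the RUNX letters 5 times and the ETS letters 0 times in 2.92 kb, and the 120 bases with most of them were the following (hg19, chr21:36128016-36128135, plus strand).
RUNX1 contacted fragment: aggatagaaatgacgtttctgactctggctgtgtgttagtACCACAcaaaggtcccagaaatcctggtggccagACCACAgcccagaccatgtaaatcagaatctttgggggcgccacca

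RUNX2, the main transcription factor of bone-forming cells, had no call in GM12878. None of the 4 fragments with an annotated RUNX2 start was in the list at either end of a call. The distal RUNX2 promoter of RefSeq (GRCh38.p14, chr6:45328080-45328329, plus strand, 250 bases before the start) also held the RUNX letters in 2 places, and is printed beside that of RUNX3 to show their spacing in the related gene.
RUNX2 distal promoter: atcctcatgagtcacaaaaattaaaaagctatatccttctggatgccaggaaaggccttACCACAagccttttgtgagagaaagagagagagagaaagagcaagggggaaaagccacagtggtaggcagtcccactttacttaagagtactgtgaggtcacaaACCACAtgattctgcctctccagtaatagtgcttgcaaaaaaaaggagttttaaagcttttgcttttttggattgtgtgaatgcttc
RefSeq promoters were matched for 6 of the 9 genes, 13 in all. The RUNX letters were found in 2 of the 13, those printed, against 11.0% of all 35116 promoters, and the ETS letters in 0 of 13 against 19.5%.

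CBFB stood apart from the RUNX genes in the number of its contacts. Its bait, chr16:67056829-67064246, was the bait in 29 of the 36 calls and the other end in 7, and the 36 calls made 32 fragment pairs. Distances ranged from 10.3 to 344 kb, and 33 of 36 calls lay downstream of the CBFB promoter. At a gap of at most 20 kb the contacts merged into 4 regions, of which chr16:66973370-67215319 held 29 calls on 25 of its 48 HindIII fragments (52.1%). Within it 10 neighbouring fragments in a row were called, over chr16:67163774-67201604 (37.8 kb).

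In 12 of its 36 calls CBFB was joined to another baited promoter. A total of 4 promoter fragments were called from both sides. With C16orf70 (PHAF1 in the annotation) the pair had 37 reads and scored 8.28 from the CBFB side and 9.97 from the other. With B3GNT9, which encodes a glycosyltransferase, it had 36 reads and scored 10.55 and 14.23. The fragment of HSF4, a heat shock factor, with KIAA0895L and NOL3 had 34 reads at 148 kb and scored 11.17 from CBFB and 16.55 towards it. The neighbouring fragment of FBXL8, HSF4 and TRADD, the last an adaptor of the TNF receptor, had 26 reads and scored 6.99 and 7.49. In each of the 4 pairs the score was higher from the partner than from CBFB.

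The remaining promoter contacts of CBFB were listed from 1 side. The highest score of the gene, 17.2 with 31 reads, was from the bait of the carboxylesterase CES4A, 28.4 kb upstream. The fragment of CES2 and CES3, further upstream at 76.3 kb, had 21 reads and a score of 9.34. At 218 kb downstream the fragment of the formin FHOD1 and the ion exchanger SLC9A5 had 13 reads and a score of 11.44. KCTD19 and LRRC36 at 300.1 kb were the farthest promoters, with 19 reads and a score of 5.54. The unbaited fragments with the highest scores were chr16:67178505-67183044, at 120.2 kb with 29 reads and a score of 15.92, and chr16:67132920-67135341, over the 3′ end of CBFB at 73.6 kb with 36 reads and a score of 15.35. Of the 29 fragments called from the CBFB bait 25 were also called from at least one other bait, with up to 11 baits calling the same fragment. The bait most like it was that of B3GNT9, which shared 15 fragments, 51.7% of those of CBFB and 42.9% of its own 35.

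**Figure D2:**
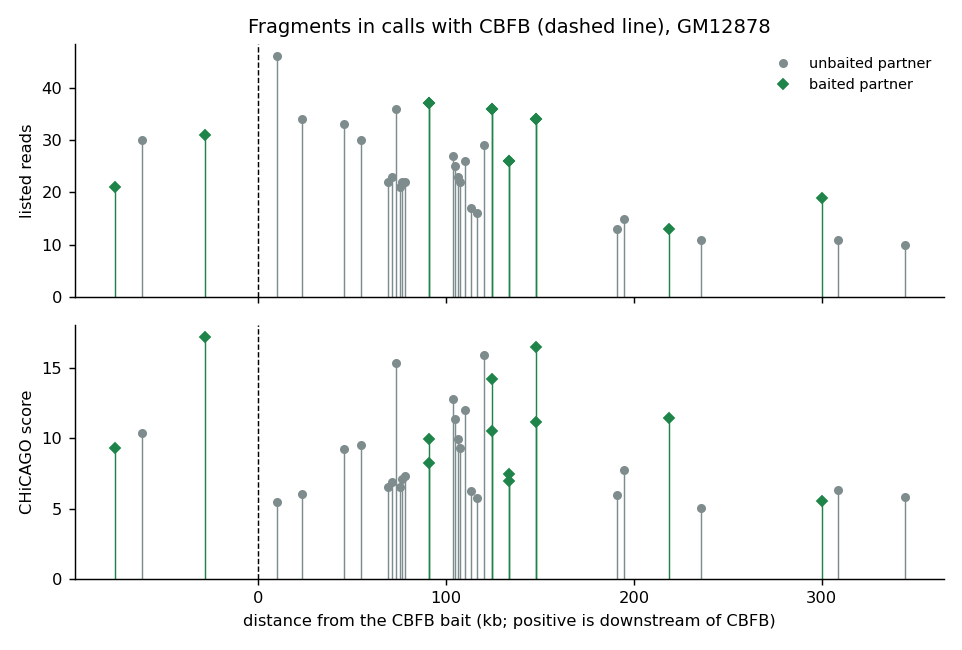
Listed read count (top) and CHiCAGO score (bottom) of each of the 36 CBFB calls in GM12878 against the distance of the partner fragment from the CBFB bait in kb, with the bait at 0 (dashed line). Green diamonds are baited partners (12 calls; pairs called from both sides give 2 diamonds at the same distance) and grey circles unbaited ones. Of the 36 calls 29 lie between 76.3 kb upstream and 148 kb downstream, and the farthest is at 344 kb.

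ETS1 gave the opposite picture in its partners. All 52 of its calls came from 1 bait, chr11:128449766-128458801, and all 52 went to unbaited fragments. In the GM12878 list 67 of 15389 baits had at least 52 calls, and ETS1 was the only 1 of these 67 with no baited other end. Over all 9 genes, 5 of 96 calls with the gene on the bait had a baited other end (5.21%, Wilson interval 2.24 to 11.6%), against 29.4% of all calls. All 5 were calls of CBFB. With ETS1 left out the share was 11.4%. Most of the 96 calls came from the ETS1 and CBFB baits, often to neighbouring fragments. Such calls are not independent, so no difference is read from the interval.

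Most ETS1 contacts lay downstream, beyond the end of the gene. There were 46 downstream calls, from 60.0 to 420 kb, and 6 upstream calls. Of the 52 contacted fragments 33 overlapped no annotated gene and 7 lay over ETS1 itself. Merged at a gap of 20 kb they made 7 regions. The densest of the larger ones was chr11:128144880-128213788, 242.6 to 307 kb from the bait, where 19 of 27 fragments (70.4%) were called, 6 of them in a row. It held the 4 highest scores of the gene. The highest, 20.72 with 30 reads, was at chr11:128167853-128171584, at 284.6 kb. The scores of 16.24 with 25 reads, 15.93 with 27 reads and 15.47 with 24 reads followed.

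The farthest region, chr11:128031807-128123224, had 13 of 23 fragments called and overlapped the non-coding genes LINC02725 and LINC02098. Its highest score was 14.31, with 20 reads at 402.9 kb. Closer to the gene, chr11:128235508-128263164 had 4 of 8 fragments called, and chr11:128286282-128395626, which runs into the ETS1 body, 10 of 36. Upstream, 2 fragments within 26.1 kb of the bait had the most reads of any ETS1 call, 62 and 41, at scores of only 8.92 and 5.05. The other upstream contacts were pairs of neighbouring fragments past FLI1: 240.2 and 245.0 kb from the bait with 18 and 14 reads, and over the potassium channel gene KCNJ1 with 17 and 13 reads.

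Read counts of ETS1 calls were above the median of all calls at like distance. At 200 to 300 kb its 22 calls had a median of 17 reads against 13 over all 17187 calls, and at 300 to 400 kb 12 calls had 13 against 11. CBFB had 26 against 17 over its 16 calls at 100 to 200 kb and 23 against 22 at 50 to 100 kb. The 16 calls count the pairs with B3GNT9, FBXL8 and NOL3 (36, 26 and 34 reads) from both sides. The pair with C16orf70 is counted in the same way at 50 to 100 kb. By the paper, pairs of baited fragments have higher expected read counts than others at the same distance. In its other ranges CBFB was at or below the median of all calls, with 33.5 against 36 under 50 kb, 12 against 13 at 200 to 300 kb and 11 against 11 at 300 to 400 kb. Read counts are not adjusted for the bait, whereas the score is, and median scores ran differently. ETS1 scores were below those of all calls at 100 to 200 kb (6.01 against 6.73) and 300 to 400 kb (6.025 against 6.395). They were above in the other ranges of ETS1. CBFB scores were above those of all calls in each range under 300 kb, with 8.245 against 6.55 at 200 to 300 kb. At 300 to 400 kb they were below, 5.81 against 6.395. These medians are descriptions, since neighbouring fragments are not independent.

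From the contacted fragment with the highest ETS1 score the 120 bases around the first match are printed, because this fragment is the peak of the ETS1 profile (hg19, chr11:128168220-128168339, plus strand). Capitals mark ACTTCC, the reverse complement of the searched ETS letters GGAAGT.
ETS1 contacted fragment: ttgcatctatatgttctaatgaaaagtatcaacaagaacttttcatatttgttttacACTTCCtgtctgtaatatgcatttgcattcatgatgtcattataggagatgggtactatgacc
The whole fragment of 3.73 kb held the ETS letters 3 times and the RUNX letters 2 times, and overlapped no annotated gene.

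FLI1, an ETS gene of megakaryocytes and blood stem cells, is the neighbour of ETS1 and is transcribed away from it. It was baited on 2 fragments, chr11:128556083-128557365 with RP11-744N12.3 and chr11:128559233-128568369 with the non-coding gene SENCR, at 102.4 and 109.5 kb from the ETS1 bait. No call joined the ETS1 bait to either. FLI1 had 3 calls in GM12878, with 6, 7 and 7 reads and scores of 5.32, 5.05 and 5.5. All 3 lay upstream of FLI1 at 375, 457 and 525 kb, on the far side of ETS1. Of these fragments 2 were also called by ETS1: chr11:128180982-128182846, with 15 reads from ETS1 and 6 from FLI1, and chr11:128036960-128039844, with 13 and 7.

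The bait most like ETS1 lay inside the ETS1 gene. It was named RP11-1007G5.2, and the annotation places the antisense gene ETS1-AS1 there. It shared 17 fragments with ETS1, 32.7% of the 52 of ETS1 and 58.6% of its own 29. The same bait called 3 fragments in the body of FLI1 with 10 or 11 reads and scores of 5.07, 5.51 and 5.55. From the farther fragment shared by ETS1 and FLI1, 120 bases around its RUNX letters are printed as sequence contacted from both promoters (hg19, chr11:128039022-128039141, plus strand, ACCACA in capitals). The nearer shared fragment, of 1.86 kb, held neither set of letters.
ETS1 and FLI1 shared fragment: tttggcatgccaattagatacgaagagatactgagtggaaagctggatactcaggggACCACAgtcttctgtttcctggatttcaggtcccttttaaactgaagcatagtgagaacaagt

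**Figure D3:**
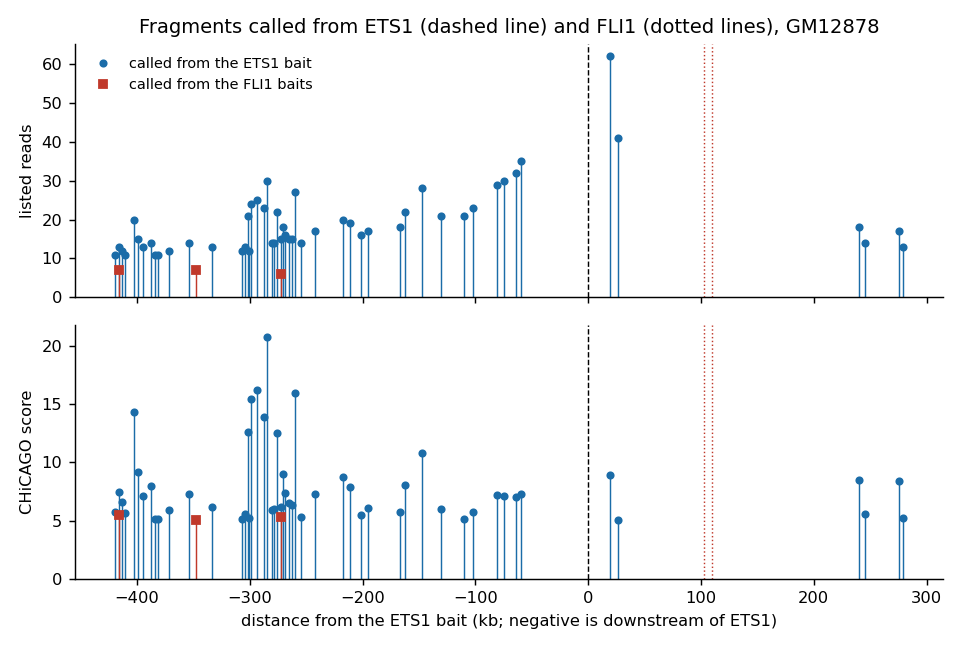
Listed read count (top) and CHiCAGO score (bottom) of the 52 fragments called from ETS1 (blue circles) and the 3 called from FLI1 (red squares) in GM12878 against distance from the ETS1 bait in kb, with negative values downstream of ETS1. The dashed line is the ETS1 bait and the dotted lines the FLI1 baits, 102.4 and 109.5 kb away. Reads fall with distance while scores peak at 284.6 kb downstream. The red squares lie within the span of the blue circles on the far side of ETS1, but at 6 or 7 reads, where no blue circle is under 11.

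ETV6, a transcriptional repressor of the ETS family and a frequent partner in leukaemic fusions, had 4 calls from chr12:11800572-11809778. Of these 3 stayed within the long ETV6 gene, at 8.16 kb with 47 reads, 70.9 kb with 18 reads and 166 kb with 13 reads, with scores of 5.44, 5.25 and 5.98. The last went 674 kb downstream, to an exon of MANSC1, with 7 reads and a score of 5.69. No other bait called any of the 4 fragments. The intronic fragment with the highest ETV6 score, chr12:11964203-11978389 (14.2 kb), held the RUNX letters 15 times and the ETS letters 17 times, and is shown by 120 bases in which both occur (hg19, chr12:11966387-11966506, plus strand, GGAAGT and TGTGGT in capitals).
ETV6 contacted fragment: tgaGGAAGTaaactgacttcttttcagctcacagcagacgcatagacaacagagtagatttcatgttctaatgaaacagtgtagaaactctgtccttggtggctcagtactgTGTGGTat

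ERG, the ETS gene of endothelium that is closest in sequence to FLI1, had 1 call in GM12878. From chr21:40027318-40040037 it reached chr21:40526993-40534293, 497 kb upstream, with 9 reads and a score of 7.18. The fragment overlapped no annotated gene and was also called from the bait of ETS2, another ETS gene on the same chromosome.

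ELF1, an ETS factor of lymphoid cells, had its contacts mostly with other promoters. Its bait, chr13:41629564-41638483, was shared with WBP4, so the 7 calls cannot be assigned to either gene. In 4 of them the other promoter was the bait and ELF1 the other end. The highest score was from KBTBD7, a Kelch protein gene, 16.42 with 13 reads at 135.6 kb. SLC25A15, a mitochondrial ornithine carrier gene, scored 7.56 with 8 reads at 269.7 kb. KBTBD6 scored 5.82 with 16 reads at 71.7 kb and snoU13 5.41 with 15 reads at 120.1 kb. From the ELF1 side 3 unbaited fragments were called, and the best of these, at 161 kb with 22 reads and a score of 8.87, lay over an exon of MTRF1, a mitochondrial release factor gene. KBTBD7 thus had a higher score on fewer reads than the MTRF1 fragment, the 2 calls being scored from different baits.

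In mESCs the order of the genes was different. The listed calls numbered 52 in GM12878 and 2 in mESCs for ETS1, and 36 and 0 for CBFB. FLI1 had 3 and 12, ETV6 4 and 10, ELF1 7 and 11, ERG 1 and 4. RUNX1 had 2 and 1, RUNX2 0 and 1, and RUNX3 2 and 0. Of the 6 genes with a call in both lists, 2 had at least 2 times as many in GM12878 (ETS1, 26-fold, and RUNX1, 2 calls against 1), and 3 had at least 2 times as many in mESCs (FLI1 and ERG, 4-fold each, and ETV6, 2.5-fold). Among all 8690 symbols with a call in both lists these shares were 31.6% and 34.6%, so nothing particular to these genes is read from the number past this ratio. The lists differ in species, in capture design and in the number of replicates, and each gives 1 value per gene, so none of these differences was tested. At a score of at least 10 ETS1 kept 9 calls, CBFB 12 and ELF1 1 in GM12878, the other 6 genes had 0. ELF1, with 3 such calls in mESCs, was then the only gene with a call in both lists.

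The mouse bait of Ets1, chr9:32442391-32444098 (mm9), gave 2 calls just over the threshold, 107.0 kb downstream with 9 reads (score 5.13) and 289 kb downstream with 6 reads (score 5.03). Cbfb had no named fragment in the mESC list. The fragment with its annotated start was listed once, without a name, as the other end of a call, and was the bait of none, so by the rule for baited fragments it was unbaited. The 0 calls of Cbfb are therefore not a measured absence of contacts. Baits of 5 other promoters made 11 calls into the mouse Cbfb gene, among them that of Ces4a, with scores up to 7.53.

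Fli1 had the strongest contact of any of the genes. In mESCs its bait, chr9:32344983-32349826, was joined to the promoter of Barx2, a homeobox gene, 626.5 kb downstream with 32 reads, at scores of 45.23 from Fli1 and 31.3 from Barx2. A score of 45.23 or more was listed for 378 calls (0.371%). The potassium channel gene Kcnj5, at 196.3 kb, had 23 reads and scores of 15.8 and 8.59. St3gal4, a sialyltransferase gene 2576 kb upstream, had 6 reads and scores of 8.31 and 9.42. None of these genes was a partner of FLI1 in GM12878, where all 3 FLI1 calls pointed upstream. As in the human cells, no call joined Fli1 and Ets1, whose baits lay 95.8 kb apart.

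Etv6 was joined in mESCs to the Wnt co-receptor gene Lrp6 at 524 kb, with 10 reads and scores of 6.7 and 8.44. It was also the other end of calls from Gm17088 (8 reads, score 5.91), Mansc1 (4 reads, score 5.46) and Loh12cr1 (7 reads, score 5.93). MANSC1 was at the far end of an ETV6 call in both cell types, at 674 kb in GM12878 and 585 kb in mESCs, though in GM12878 the contacted fragment was an exon and not a baited promoter. Erg called 4 fragments in a single stretch 346 to 369 kb upstream, with 8 to 11 reads and scores of 5.74 to 9.52, all outside annotated genes.

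Elf1 alone of the 9 genes had named promoter partners in both lists, so no other gene could share one between them. In mESCs it was called from both sides with Naa16, a subunit gene of an N-terminal acetyltransferase (24 reads, scores 12.73 and 15.81), with Mtrf1 (18 reads, 7.83 and 10.04) and with Kbtbd7 (18 reads, 5.11 and 5.73). KBTBD7 was the only promoter symbol joined to the same gene in both lists, for any of the 9 genes. Runx1 had 1 call in mESCs, 125.9 kb upstream with 9 reads and a score of 5.23. Runx2 also had 1, to the next fragment but one at 2.09 kb, with 87 reads and a score of 5.79. Another fragment with 5 annotated Runx2 starts, chr17:44871865-44878936, was listed under the name Gm10497 alone and was the bait of 6 calls, which the rule by symbol does not count for Runx2. Neither of the 2 fragments with a mouse Runx3 start was listed.

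**Figure D4:**
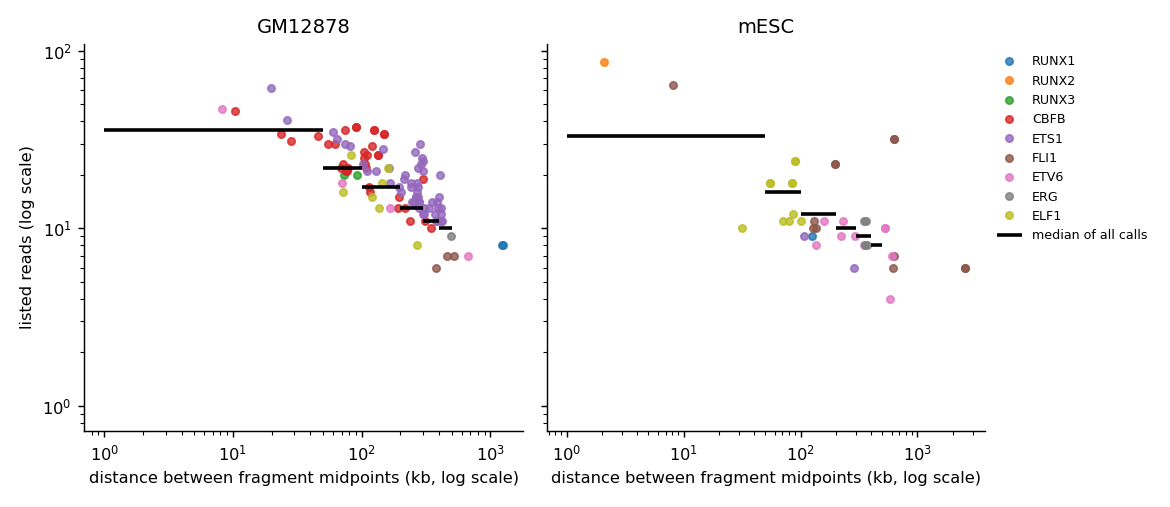
Listed read count (y axis, log scale) against distance between fragment midpoints in kb (x axis, log scale) for every call of the 9 genes in GM12878 (left) and mESCs (right), coloured by gene. Black bars are the median read count of all calls of the list within each distance range up to 500 kb. ETS1 and CBFB fill the range from 50 to 400 kb in GM12878, and the Fli1 pair with Barx2 (32 reads at 626.5 kb) lies far above the trend in mESCs.

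Across the mESC calls 7 of 30 with the gene on the bait had a baited other end (23.3%, Wilson interval 11.8 to 40.9%), against 36.3% of all mESC calls. In GM12878 4 pairs were called from both sides, all of CBFB, and in mESCs 7, of Elf1, Fli1 and Etv6. In the uncaptured mESC Hi-C library, 0 of 39 mouse calls of these genes under 1 Mb had both midpoints in a pair of 25-kb bins with an FDR under 0.05 (Wilson interval up to 8.97%), against 11.6% of all 97826 such calls. Calls of the same bait, and pairs listed from both sides, are not independent. No difference is therefore read from either interval.

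The searched letters of both families were also counted in the fragments contacted from these genes. In the middle 300 bases of the 94 fragments contacted from member baits in GM12878, TGTGGT on either strand was found in 21 (22.3%, Wilson interval 15.1 to 31.8%) against 20.8% of all 49315 called other ends. GGAAGT was found in 18 (19.1%, 12.5 to 28.3%) against 15.1%. Over whole fragments the RUNX letters occurred 0.758 times per kb against 0.795, and the ETS letters 0.573 times against 0.563. Matches of the RUNX and the ETS letters can overlap by at most 1 base. In the middle window the interval of each set of letters holds the value over all other ends. In the first and last 300 bases of the fragments this was so for the RUNX letters (33.0%, 24.3 to 43.0%, against 34.7%). The interval of the ETS letters lay below that value, with 18.1% (11.6 to 27.1%) against 29.7%. Of the 94 fragments 52 were contacted from ETS1 and 29 from CBFB, many of them neighbours. Such fragments are not independent, so no difference is read from these intervals.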

How the data were processed

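GM12878 (3 replicates) and J1 mESCs (2 replicates) were profiled by Promoter CHi-C, and mESCs by 1 Hi-C library. Per the paper's methods the authors mapped read pairs with HiCUP (Bowtie 1.1.0 and HOMER 4.7 are named in the submitters' processing notes) to hg19 or mm9, removed artefacts and duplicates, combined replicates and called interactions with CHiCAGO. The deposited lists give a CHiCAGO score and a read number combined over replicates with weights and rounded, which is treated as a score and not as a raw count. The deposited Hi-C list of 25-kb bin pairs holds interaction read counts and an FDR p-value from HOMER. Only the FDR was used, and 6 further value columns (totals, expected reads and statistics of the authors) were not.

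All 100% of listed fragments matched the HindIII digest of hg19 (GENCODE v44lift37 names) or mm9 (vM1). Names were split at semicolons, bars and commas, without transcript suffixes. The planned rule named semicolons only, and the mESC list uses the others. Distances are between midpoints. Other ends counted as baited where they carried a name or were themselves the bait of some call. Contacted fragments at most 20 kb apart formed a region. Promoters of RefSeq (GRCh38.p14) were matched to fragments by sequence.

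All 9 genes were described, with the 3 calls of highest score and the shortest and longest call of each gene, every promoter joined to it, and the bait sharing most fragments. The genes and lists were chosen with earlier results of these data known. No test was run, as each cell type has 1 set of calls. Python 3.11.15, pandas 2.3.3 and scipy 1.17.1 were used. Functions were tested on simulated lists.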

Additional observations from a re-analysis of the deposited data

How the results depend on the processing

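Of 36 values recomputed under another choice, 27 stayed within 1.5 times the reported count or within the interval of the reported median or share. Some of the 27 could not move. All calls of these genes were cis-chromosomal, so keeping cis calls only changed nothing. With 0 calls in Hi-C bin pairs at an FDR under 0.05, a limit of 0.01 could only give 0. The browser list repeated the values found by counting each fragment pair once. The 27 are therefore not all separate checks. With a score of at least 10 the GM12878 calls fell to 22, the mESC calls to 6, the members with at least 2 times as many calls in GM12878 to 0, and the share of baited other ends was 11.8%. The RUNX letters were found in 33.0% of contacted fragments when the first and last 300 bases were searched, where all other ends had 34.7%. This window is longer than the middle one. The ETS letters were then in 18.1% (interval 11.6 to 27.1%) against 29.7% of all other ends, which the interval does not hold, unlike in the middle window. The contacted fragments are often neighbours and not independent, so no difference is read from this. Chosen after seeing the data, leaving out ETS1 gave 55 GM12878 calls and a median distance of 117 kb. Leaving out ETS1 and CBFB gave 19 calls, a median of 161 kb, within the reported interval, and a share of baited other ends of 0%. The number of calls therefore rests on those genes. The browser list gave 103 and 34 pairs. No paired analysis was possible because the lists combine the replicates, and for the same reason no replicate could be left out. Depth could not be read from the lists, and a contact under a score of 5 is not in them. The paper reports the unique captured read pairs of each replicate, which differ between replicates. It also proposes that the first GM12878 replicate was of poorer quality than the others. The call numbers compared here between cell types were not adjusted for either.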

Other observations

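The rest of the ETS family had medians close to the 4 calls of a listed gene symbol in each list. Of 22 other ETS genes 17 had a call in GM12878 and 18 in mESCs, with medians of 4 and 3 calls. Of the 16 with a call in both, 6 had at least 2 times as many in GM12878 and 4 in mESCs, against 31.6% and 34.6% of all matched symbols. ERF, a repressor of the family, had 41 and 57 calls, FEV, a factor of serotonergic neurons, 18 and 118. ETS2, which shared a contacted fragment with ERG, had 16 and 3, and ETV2, which had as many in GM12878, 16 and 13.

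Of 14 genes for proteins that work with RUNX factors, all 14 had a call in GM12878 and 9 in mESCs. Their medians were 9 and 1.5 calls, where a gene without a listed call counts as 0. The median over symbols with a listed call was 4 in each list. Because of the genes at 0, no difference between the cell types is read from these medians. Among the 9 with a call in both, 4 had at least 2 times as many in GM12878 and 2 in mESCs, against the same 31.6% and 34.6% of all matched symbols. PRMT1, an arginine methyltransferase, had 40 and 8 calls, the acetyltransferase gene CREBBP 33 and 11, and the corepressor gene CBFA2T3 22 and 0. For the genes at 0 in mESCs, a promoter without a listed call and one that was not captured cannot be told apart.

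Further baits called into the bodies of these genes in GM12878. The bait of CDKN1B, a cell cycle inhibitor gene, called a fragment within ETV6 at 965 kb with 11 reads and a score of 7.04. RNU7-60P called another at 284.7 kb with 14 reads and a score of 6.23. PSMG1 called into ERG at 653 kb with 7 reads and a score of 5.03. A bait without a gene name that lay within RUNX3 itself called the 3′ part of the gene, 5.51 kb away, with 43 reads and a score of 7.63.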
